A study of Homo sapiens with 4 samples.

Results

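The Pellino ligases and the core of Toll-like receptor signalling were followed as a set of 10 genes, namely the ligases PELI1, PELI2 and PELI3, the kinases IRAK1 and IRAK4, the adaptor MYD88, the ligase TRAF6, the receptors TLR9 and TLR10 and the receptor relative CD180. Every probe set whose platform annotation gave exactly 1 of these symbols was taken, which yielded 15 probe sets of 9 genes out of 19775 genes with such a probe set. IRAK4 was not analysed here. The set was selected on the difference of PELI1 between the groups on these same arrays, so the values below describe the arrays and are not an independent test of that difference. The arrays held total RNA of Z138, an established human mantle cell lymphoma line, carrying stably integrated lentiviral short hairpin RNAs. The control group (shControl) had 2 arrays, with the scramble hairpins shControl.1 and shControl.2, and the knockdown group (shSOX11) had 2 arrays, with the SOX11 hairpins shSOX11.1 and shSOX11.3. All 4 samples were transduced, and every array has its own hairpin construct, with no label that speaks of separate cultures of 1 construct. The spread within a group can therefore hold differences between constructs as well as technical ones, which these arrays cannot tell apart. With so few arrays all values are imprecise.

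In B cells, Toll-like receptors sense microbial molecules at the cell surface or, as TLR9 does for DNA rich in unmethylated CpG, in endosomes. An engaged receptor recruits the adaptor MYD88, which gathers the kinases IRAK4 and IRAK1; these activate the ubiquitin ligase TRAF6, and the signal passes on to the IKK complex and NF-kappaB. Pellino proteins are ubiquitin ligases that bind phosphorylated IRAK proteins through a forkhead-associated domain and attach ubiquitin chains through a RING-like domain. Activating MYD88 mutations occur in several B-cell lymphomas, although they are a minor feature of mantle cell lymphoma.

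SOX11, the target of the hairpins, had a signal of 797 and 787 in the control cells and 335 and 339 in the knockdown cells, 42.5% of control. The trimmed mean signal was the same on all arrays, while the beta-actin 3′/5′ ratio, a measure of how complete the labelled RNA is, read 11.6 with either control hairpin and 7.29 and 5.31 in the knockdown; that of GAPDH lay between 0.978 and 1.06 with no separation of the groups. Of 7 B-cell and mantle cell lymphoma markers, 6 were measured, and these lay above the signal threshold of 24.83 (the median of all signals) on 3 arrays, with CD22 below it on shSOX11.3. Their signals summed to 21199 and 21161 in the controls and 18075 and 18368 in the knockdown, most of it from MS4A1 and CCND1. CD79B read 916 and 992 against 535 and 658. PAX5 read 1845 and 1666 in the controls, then 646 with shSOX11.1 and 1450 with shSOX11.3. CD79A overlapped between the groups, at 272 and 341 against 279 and 220. Markers of myeloid cells, which are rich in Toll-like receptors, had summed signals of 103 to 140 in the controls and 130 to 139 in the knockdown (7 of 8 measured, LYZ and S100A8 below the threshold on all 4 arrays). Of these, CSF3R (8.51 and 7.67 against 30.6 and 30.3) and CSF1R (15.1 and 8.98 against 25.7 and 28.9) were above the threshold on both knockdown arrays and on neither control array. Their knockdown values lay only a little above it. LYZ went the other way (12.7 and 8.84 against 4.93 and 7.17). S100A8 (13.6 and 21.9 against 1.78 and 16.1), S100A9, MPO and ITGAM overlapped between the groups, so the list as a whole had no common direction. Plasmacytoid dendritic cell markers, of a TLR9-bearing cell type, summed to 51.7 to 54.8 and 39.9 to 68.9 (5 of 5 measured, CLEC4C, GZMB and NRP1 below the threshold on all 4 arrays). The 8 T and NK cell markers summed to 589 and 616 in the controls and 439 and 417 in the knockdown, most of it from CD3G, LCK and CD247, with CD8A below the threshold on all 4 arrays. The beta-actin ratio, the B-cell sum, the T and NK cell sum, CSF3R and CSF1R moved with the groups, and their part in the differences below was not tested.

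All 3 probe sets of PELI1 read higher on both shSOX11 arrays. It encodes the Pellino ligase best known in lymphocytes, which acts downstream of IRAK1 and also on c-Rel and BCL6. At the brightest probe set the signal was 585 on shControl.1, 612 on shControl.2, 937 with shSOX11.1 and 1050 with shSOX11.3. Both knockdown arrays lay above both control arrays, and the arrays within each group lay close together. The log2 means were 9.22 ± 0.05 for shControl and 9.95 ± 0.12 for shSOX11 (SD, n = 2 each), a log2 difference of 0.73 with a standard error of 0.15, or 1.66-fold. Taken as 4 pairs, each of a knockdown and a control array, the differences ran from 0.61 to 0.84. In bulk samples such as these, a different share of cells with the transcript and a different amount per cell cannot be told apart. The second probe set read 137 and 152 in the controls and 198 and 192 in the knockdown, a difference of 0.44. The third read 78.9 and 64.6 against 89.0 and 107, a difference of 0.45. No array of one group overlapped the other at any of the 3, although the difference at the brightest was the largest of them, and the mean over the 3 probe sets was 0.54. A larger difference toward shSOX11 was seen in 346 of the 11938 genes that passed the signal filter (signal above the threshold on at least 2 arrays, with 1 probe set, the brightest, per gene).

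The bases before the start of PELI1, and of MYD88 and TLR9, which were lower on both shSOX11 arrays, show the regulatory sequence next to the 3 genes whose brightest probe sets did not overlap between the groups. Each is the 250 bases before the RefSeq gene start (GRCh38.p14), 5′ to 3′ on the gene's strand, at chr2:64144421-64144670 (minus strand), chr3:38138411-38138660 (plus strand) and chr3:52225646-52225895 (minus strand). Capitals mark matches, on either strand, to an NF-kappaB pattern (GGG, any 5 bases, then CC) or to the SOX core patterns ACAAAG and ACAATG.
PELI1: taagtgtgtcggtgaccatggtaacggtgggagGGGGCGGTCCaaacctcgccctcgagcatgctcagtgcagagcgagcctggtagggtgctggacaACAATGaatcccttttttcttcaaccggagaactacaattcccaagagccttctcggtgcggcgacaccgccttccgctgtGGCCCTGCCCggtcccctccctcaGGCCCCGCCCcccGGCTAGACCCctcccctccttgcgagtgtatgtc
MYD88: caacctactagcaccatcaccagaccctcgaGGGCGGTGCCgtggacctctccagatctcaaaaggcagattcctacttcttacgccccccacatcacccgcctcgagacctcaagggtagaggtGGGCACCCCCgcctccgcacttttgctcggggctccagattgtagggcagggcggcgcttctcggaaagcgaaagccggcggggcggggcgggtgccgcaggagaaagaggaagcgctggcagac
TLR9: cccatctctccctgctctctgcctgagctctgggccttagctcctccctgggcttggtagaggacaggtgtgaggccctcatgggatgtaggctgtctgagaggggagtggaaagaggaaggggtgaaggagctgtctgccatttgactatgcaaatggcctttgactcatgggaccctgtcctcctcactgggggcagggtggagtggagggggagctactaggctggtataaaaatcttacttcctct
The PELI1 window held 1 SOX core, ACAATG, from 152 to 147 bases before the start, and 4 NF-kappaB patterns that neither overlap each other nor the SOX core. The MYD88 window held 2 NF-kappaB patterns and no SOX core, and the TLR9 window held no match to any of these patterns. Windows were given for 9 of the 10 genes, 10 windows in all since PELI3 has 2. Of the 10, 2 held ACAATG (PELI1 and CD180), 1 held ACAAAG (IRAK4) and 8 held the NF-kappaB pattern. Among all 35116 RefSeq windows of this length, 9.29% held ACAATG, 13.7% held ACAAAG and 54.4% held the NF-kappaB pattern, which GC-rich sequence matches readily. The share of all windows with either SOX core was not counted, so each pattern is set only against its own share. A match describes the letters only, and does not make a binding site.

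PELI2 and PELI3, the other Pellino ligases, overlapped between the groups. PELI2 read 81.5 and 105 in the controls and 88.1 and 65.8 in the knockdown. The log2 difference of -0.28 was about the size of its standard error of 0.28, and it was -0.069 without shSOX11.3. A second PELI2 probe set lay between 2.06 and 2.72 on all 4 arrays, below the threshold, and was the 1 probe set of the 15 that did not pass the filter. PELI3 read 83.2 and 52.9 in the controls, then 4.12 with shSOX11.1 and 65.8 with shSOX11.3. The shSOX11.3 value fell between the control values, so the mean log2 difference of -2.01 (SE 1.08) rests on shSOX11.1, which stood at -4.01 from the control mean on the log2 scale while shSOX11.3 stood at -0.010. The low value was under the signal threshold, where MAS5 signals are noisy, and with a pseudocount of 32 the difference was -0.73.

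**Figure D1:**
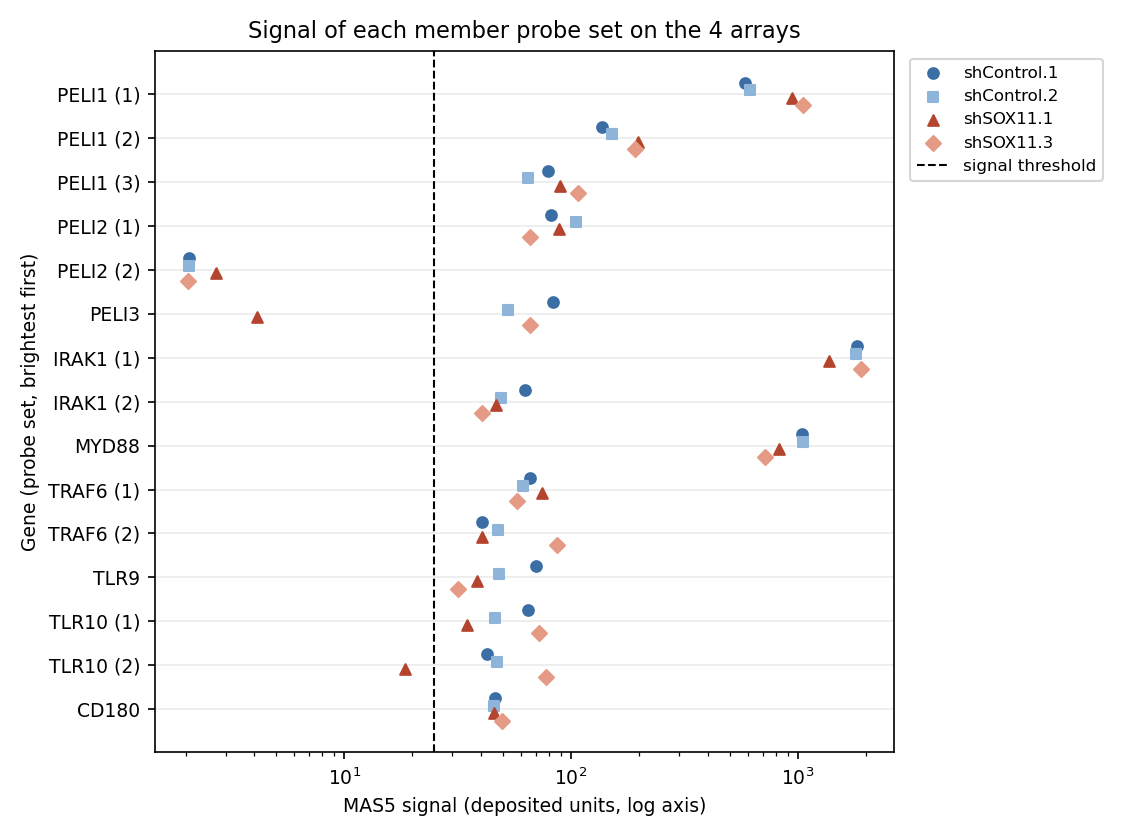
Deposited MAS5 signal (log axis) of the 15 probe sets on each of the 4 arrays, brightest probe set of a gene first, with the signal threshold of 24.83 as a dashed line. PELI1 lies higher on both shSOX11 arrays at all 3 probe sets, MYD88 and TLR9 lie lower, and PELI3 is under the threshold on shSOX11.1 alone.

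MYD88 was lower on both shSOX11 arrays. Its 1 probe set read 1040 and 1055 in the controls and 829 and 719 in the knockdown. The control arrays were almost identical, and both knockdown arrays lay below them. The log2 means were 10.03 ± 0.01 and 9.59 ± 0.15 (SD, n = 2 each), a difference of -0.44 (SE 0.15) or 73.6% of control, and the 4 pairs ranged from -0.55 to -0.33. Of all genes, 13.3% had a more negative difference than MYD88.

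The kinase and the ligase that act after MYD88 overlapped between the groups at their brightest probe sets. IRAK1, the kinase that Pellino proteins bind, read 1815 and 1807 in the controls and 1369 and 1892 in the knockdown at its brightest probe set. Only shSOX11.1 was below the controls, and the log2 difference was -0.17 (SE 0.18). Its dimmer probe set read 62.8 and 49.1 against 46.6 and 40.5, with the groups not overlapping and a difference of -0.35. Both IRAK1 probe sets end in _s_at, which marks probes shared by several transcripts. TRAF6, the ubiquitin ligase that IRAK1 engages, read 66.1 and 61.6 in the controls and 74.2 and 57.7 in the knockdown, a difference of 0.037 (SE 0.29). Its second probe set read 40.4 and 47.7 against 40.4 and 86.7, so that shSOX11.3 alone was high there. The shSOX11 arrays lay on opposite sides of the control mean at both TRAF6 probe sets, and in opposite order.

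Of TLR9, TLR10 and CD180, TLR9 was the 1 whose groups did not overlap. TLR9, the endosomal receptor for CpG DNA, read 70.4 on shControl.1, 47.9 on shControl.2, 38.4 with shSOX11.1 and 31.8 with shSOX11.3. The control arrays were 0.55 apart on the log2 scale, which was wider than the gap of 0.32 between the lower control and the higher knockdown array. The log2 means were 5.86 ± 0.39 and 5.13 ± 0.19 (SD, n = 2 each), a difference of -0.73 (SE 0.38) or 60.1% of control. With a pseudocount of 32 the TLR9 difference was -0.43, and without shControl.1 it was -0.46, against -1.01 without shControl.2.

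TLR10, a receptor largely restricted to B cells, gave no common direction on the knockdown arrays. Its brighter probe set read 64.6 and 46.4 in the controls, then 34.7 with shSOX11.1 and 72.4 with shSOX11.3. The dimmer one read 42.6 and 47.1, then 18.4 and 77.4. At both, shSOX11.1 was the lowest array and shSOX11.3 the highest, and the log2 differences were -0.13 (SE 0.42) and -0.25. The brighter TLR10 probe set ends in _x_at, which marks possible cross-hybridization. CD180, a Toll-like receptor relative on B cells that works with MD-1, read 46.2 and 45.8 in the controls and 45.6 and 49.5 in the knockdown. These 4 values lay within 0.12 of each other on the log2 scale, with a difference of 0.048 (SE 0.34, an error that limma takes largely from genes of like signal).

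**Figure D2:**
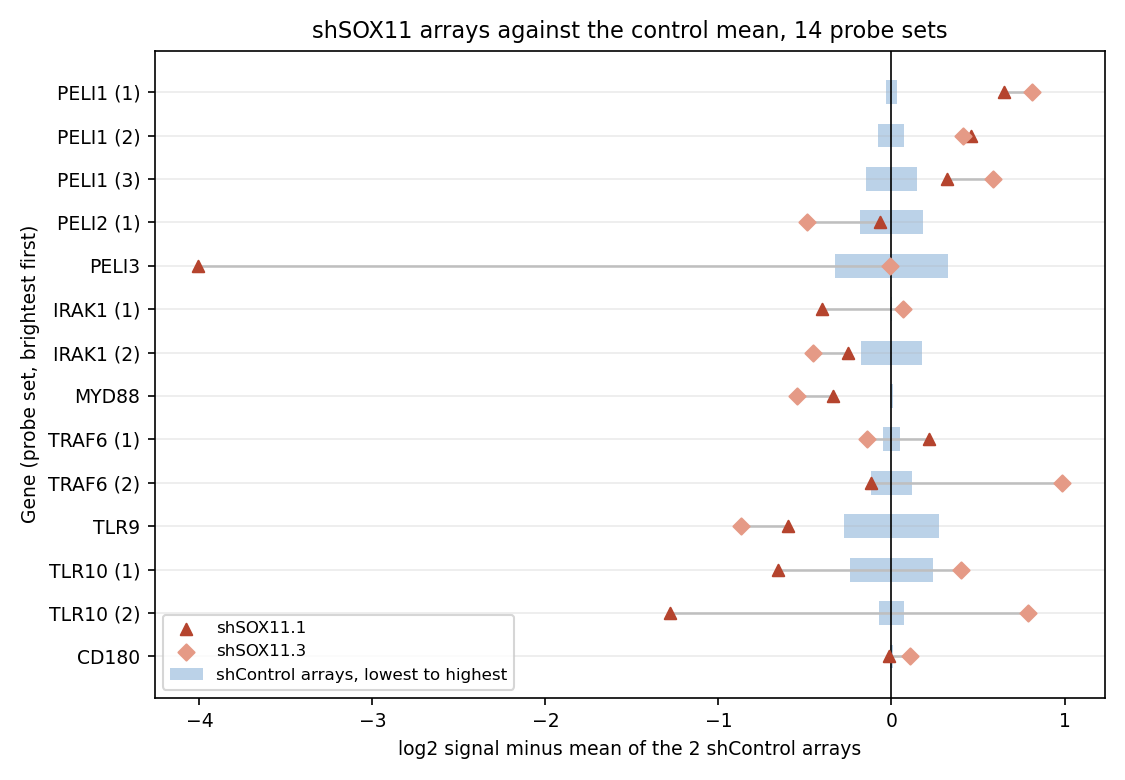
For the 14 probe sets that passed the filter, log2 signal of shSOX11.1 (triangle) and shSOX11.3 (diamond) minus the mean of the shControl arrays, with the span of the shControl arrays as a blue bar. At 6 of the 14 the knockdown arrays lie on opposite sides of 0, the dimmer TLR10 probe set being the widest apart of these. Both PELI3 values lie below 0, that of shSOX11.3 at -0.010.

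Over the set, all 9 genes passed the signal filter through 14 of the 15 probe sets. The groups did not overlap at 6 of the 14 probe sets, 3 higher on shSOX11 (all of PELI1) and 3 lower (MYD88, TLR9 and the dimmer IRAK1 probe set). Among all 22488 filtered probe sets of 1 symbol, 19.9% were higher and 21.6% lower without overlap. At 6 of the 14 the shSOX11 arrays lay on opposite sides of the control mean, against 37.7% of all probe sets. By genes, 1 of 9 was higher and 2 lower without overlap, where 16.2% and 24.9% of all genes were. PELI1 was the 1 gene at least 1.5-fold apart on all 4 pairs, and 0 were lower by that limit; 0.762% of all genes were higher and 1.93% lower, that is 91 and 230 genes, or 146 and 171 with each array centred on its median. The contrast by which PELI1 was selected is the one counted here, so nothing is read from these counts. The median log2 difference was -0.17 over the 9 genes and -0.06 over all genes, of which 41.9% were higher.

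In limma, fitted across all 11938 genes with Benjamini-Hochberg adjustment, 0 of the 9 genes passed an adjusted p of 0.05, and 0% of all genes did. At an unadjusted 0.05, 1001 genes or 8.38% were below the limit, 891 without limma's intensity trend and 1015 in its robust fit, and 2 of the 9 genes were among them in each fit (PELI1 and MYD88, but PELI1 and TLR9 without the trend). Adjusted p in limma ran from 0.337 to 0.974 over the 9 genes. SOX11, the target of the hairpins, did not pass either. Its limma adjusted p was 0.131, and no gene had a smaller one, so a gene that fails this limit is not thereby shown to be unchanged. With 2 arrays a group, the smallest two-sided p of an exact permutation test is 0.333. With 1 knockdown array left out, PELI1 and MYD88 passed without shSOX11.1 (limma adjusted p = 0.012 and 0.032; 7.98% of all genes passed there), and PELI1 and PELI3 passed without shSOX11.3 (limma adjusted p = 0.047 and 0.018; 1.77% of all genes). Those fits cannot test these genes, since the array that remains is assumed to vary like the controls, which differed less from each other. Over all genes the log2 difference had a scaled median absolute deviation of 0.260 within shControl and 0.423 within shSOX11. The scaling is R's default, which makes the deviation an estimate of an SD.

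The rest of the pathway was described through 7 lists of 90 further genes, of which 83 had a probe set of 1 symbol and 69 passed the filter. In limma 0 of the 69 passed an adjusted p of 0.05 in either direction, with 3 higher and 4 lower at an unadjusted 0.05 against 8.38% of all genes, and adjusted p from 0.268 to 0.992. The groups did not overlap for 15 higher and 18 lower genes of the 69, against 16.2% and 24.9% of all genes, and the median log2 difference was -0.04. Values given for single genes below are therefore differences between these arrays that did not pass the test.

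Other Toll-like receptors and co-receptors held 6 filtered genes of 11, of which 3 were higher and 3 lower (median log2 difference 0.11). TLR2, TLR3, TLR4, TLR8 and CD14 did not pass the signal filter. TLR1, a surface receptor of the same subfamily as TLR10, read 50.9 and 40.3 in the controls and 56.2 and 107 in the knockdown, so its difference of 0.77 (SE 0.38) was mainly that of shSOX11.3. TLR7, the endosomal receptor for single-stranded RNA, read 356 and 424 against 490 and 457, a difference of 0.28 (SE 0.17), and its second probe set was also higher. TLR7 and TLR9 thus lay on opposite sides of the control arrays. LY86, which encodes MD-1, the partner of CD180, read 823 and 879 against 776 and 502, a difference of -0.45 (SE 0.21), while CD180 overlapped between the groups.

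Chaperones and trafficking factors of the receptors held 8 filtered genes, with 5 higher and 3 lower (median 0.13). HSP90B1, the endoplasmic reticulum chaperone gp96 that folds Toll-like receptors, had the largest difference there, at 1093 and 1306 in the controls and 2179 and 2529 in the knockdown (0.97, SE 0.16). Both HSP90B1 probe sets end in _x_at, and the second was 0.42 higher. CNPY3, the co-chaperone that acts with gp96 on these receptors, was lower in the mean at all 4 of its probe sets. At the brightest it was lower by 0.27 (SE 0.19) and read 227 and 250 against 215 and 181. Another CNPY3 probe set overlapped between the groups, at 222 and 163 against 173 and 178. CTSS, an endosomal protease that processes receptor ectodomains, read 534 and 529 in the controls, then 523 with shSOX11.1 and 947 with shSOX11.3. Its difference of 0.40 (SE 0.26) thus came from 1 array.

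Adaptors, kinases and ubiquitin enzymes near MYD88 held 12 filtered genes of 15, with 7 higher and 5 lower (median 0.02). MAP3K7, the kinase TAK1 that TRAF6 activates, read 350 and 426 in the controls and 444 and 552 in the knockdown (0.36, SE 0.19). In the mean, 3 of its 4 probe sets were higher and 1 lower. TAB2, which links TAK1 to ubiquitin chains, was at 0.25 (SE 0.16). SARM1, an inhibitory adaptor of the family, was at -0.52 (SE 0.33), at 60.7 and 65.8 against 50.6 and 38.2. Of 15 filtered IKK, NF-kappaB and IRF effectors 4 were higher and 11 lower (median -0.11). The 3 genes of smallest p were IKBKG, TBK1 and IRF8. IKBKG, the regulatory subunit of IKK, was at -0.39 (SE 0.22). Its dimmer probe set overlapped between the groups, at 91.5 and 83.1 against 87.7 and 70.9, a difference of -0.15. TBK1, a kinase of interferon factors, was at 0.27 (SE 0.16). IRF8, a transcription factor of B and myeloid cells, was at -0.36 (SE 0.21). REL, the NF-kappaB subunit c-Rel that PELI1 ubiquitinates, was at -0.05 (SE 0.25), with shSOX11.1 lowest at 260 and shSOX11.3 highest at 437. REL turned to 0.04 with median centring, and 3 of its 5 probe sets were higher in the mean.

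Negative regulators held 12 filtered genes, 5 higher and 7 lower (median -0.08). CYLD, a deubiquitinase that removes the chains that TRAF6 builds, read 263 and 205 in the controls and 456 and 338 in the knockdown. Its difference was 0.76 (SE 0.21), and all 5 CYLD probe sets past the filter were higher in the mean. TNIP1, a partner of the ubiquitin-editing enzyme A20, read 338 and 321 against 166 and 287 (-0.59, SE 0.25). TNFAIP3, which encodes A20 and is itself a target of NF-kappaB, was at 0.30 (SE 0.15), with both probe sets higher in the mean. The dimmer TNFAIP3 probe set overlapped between the groups, at 275 and 218 against 235 and 445. NFKBIA, the feedback inhibitor of NF-kappaB, overlapped between the groups at 0.03 (SE 0.19). TRAFD1, a feedback inhibitor of TRAF6, was at -0.35 (SE 0.16) at its brightest probe set, with 2 other probe sets slightly higher in the mean.

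Among Pellino partners and substrates, 6 of 10 passed the filter, 4 higher and 2 lower (median 0.01). MALT1, a paracaspase of lymphocyte signalling, read 779 and 802 in the controls and 874 and 1065 in the knockdown (0.29, SE 0.16). At the other MALT1 probe sets the differences were 0.54 and 0.58, so the brightest gave the smallest. NFATC1, a transcription factor of lymphocyte activation, was at -0.49 (SE 0.19), and read 215 and 202 against 144 and 153. It was lower in the mean at all 4 filtered probe sets. The dimmest of these overlapped between the groups, at 3.33 and 33.1 against 3.82 and 26.2 and at 33.2 and 27.2 against 30.7 and 15.8. BIRC2, the inhibitor of apoptosis cIAP1, was at 0.17 (SE 0.15). BCL6, which PELI1 is known to stabilise in B cells, overlapped between the groups at 48.8 and 39.6 against 52.5 and 37.6, a difference of 0.02 (SE 0.38).

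NF-kappaB target genes, the output of the pathway, held 10 filtered genes of 16, 4 higher and 6 lower (median -0.15). PLEK, the cytoskeletal protein pleckstrin, read 928 and 924 in the controls and 1161 and 1392 in the knockdown (0.46, SE 0.15), with both probe sets higher. CD83, a surface marker of activated B cells, read 264 and 274 against 175 and 204 (-0.51, SE 0.18). CCL4, a chemokine released by activated B cells, read 85.2 and 45.2 in the controls, then 11.5 with shSOX11.1 and 40.1 with shSOX11.3. Its difference of -1.53 (SE 0.64) was -0.77 with a pseudocount of 32, since shSOX11.1 was under the threshold.

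**Figure D3:**
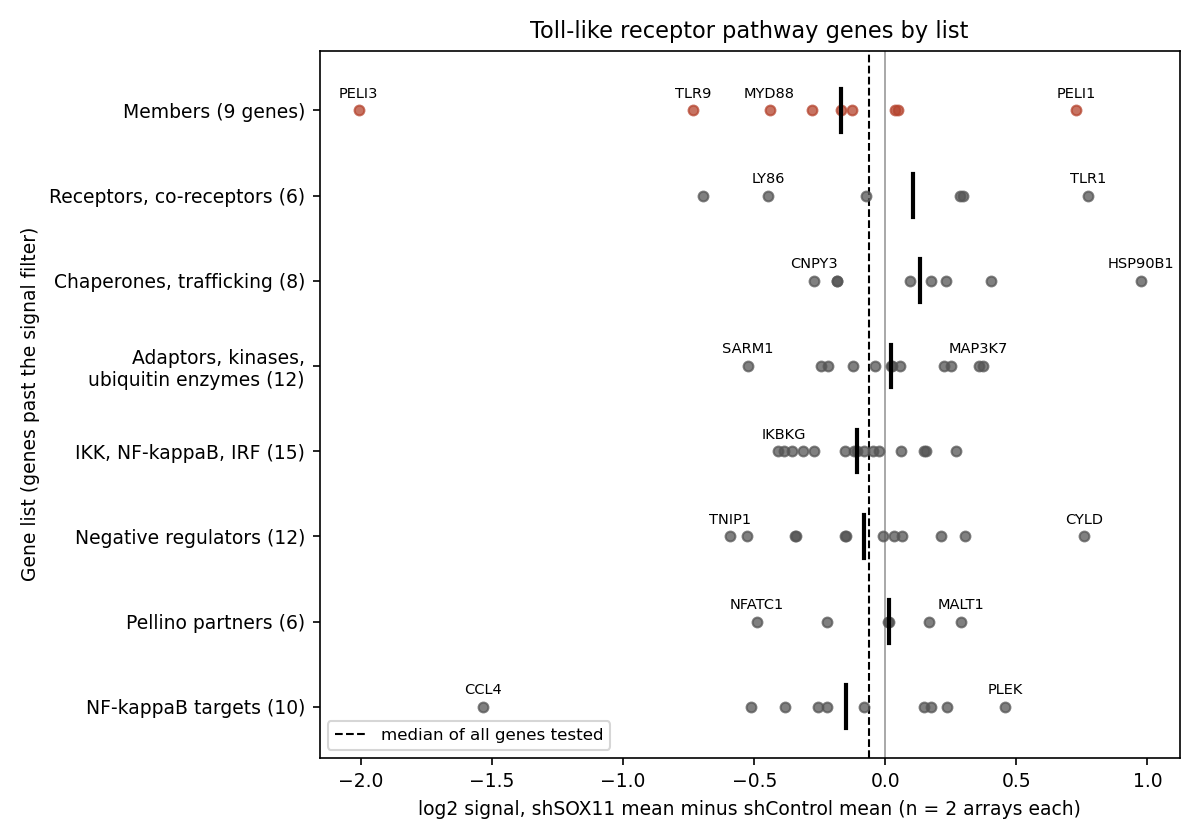
Log2 difference (shSOX11 mean minus shControl mean, n = 2 arrays each) of every filtered gene, by list, with the list median as a black bar and the median of all genes (-0.06) as a dashed line. List medians lie between -0.17 for the Pellino and Toll-like receptor set and 0.13 for the chaperones, and each list has genes on both sides.

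The genes whose profile over the 4 arrays was most like that of PELI1 were found by the Euclidean distance of log2 signals centred on each gene's mean. Among 11937 genes the nearest 5 were ITPRID2, DENND1B, PHKB, RELL1 and ITGB1, at distances from 0.043 to 0.078. DENND1B, an exchange factor for the small GTPase RAB35, read 640 and 642 in the controls and 986 and 1144 in the knockdown. ITGB1, the integrin beta-1 chain, read 1322 and 1380 against 2007 and 2242. Within a distance of 0.2 lay 50 genes, and with 4 arrays many profiles come close to each other, so this is a description of these arrays. The other 8 genes of the set were far from PELI1, with CD180 nearest at 0.684 and rank 2635, and PELI3 farthest at 3.89.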

How the data were processed

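RNA of 4 samples was hybridised to Affymetrix U133 Plus 2.0 arrays in 1 colour, and groups came from the sample titles. Values are the authors' deposited signal intensity of each probe set, linear in scale. The submitters' processing notes name MAS5 and Affymetrix Expression Console; their versions and scaling target were not given in the sources used here. Signals had equal 2% trimmed means and were taken to log2 without further normalization or pseudocount. Of 54675 probe sets, 41091 had 1 gene symbol, 1801 several and 11721 none. Probe sets with signals over 24.83, the median of all values, on 2 or more arrays passed the filter, and the one brightest on the log2 mean stood for its gene. MAS5 subtracts mismatch signals, so dim probe sets carry more error.

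Differences (shSOX11 minus shControl) were fitted with limma 3.58.1 in R 4.3.3 (lmFit, eBayes with an intensity trend, two-sided, Benjamini-Hochberg over all genes, 2 residual degrees of freedom and 8.39 after moderation), a step tested on simulated data. The members and gene lists were chosen with earlier results of these data known, from textbook knowledge. Named genes were all members, SOX11, the 3 genes of smallest p in each list, HSP90B1, REL, BCL6, TNFAIP3 and NFKBIA whatever their values, and the 5 genes most like PELI1. Alternatives tried were a pseudocount of 32, quantile normalization, median centring, no filter, a filter at the 65th percentile, averaging the probe sets of a gene, no _x_at probe sets, limma without the trend or robust, other limits, and leaving out each array. Promoter windows and gene starts are from RefSeq (GRCh38.p14); no build is named for the arrays.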

Additional observations from a re-analysis of the deposited data

How the results depend on the processing

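PELI1, PELI2, PELI3, MYD88 and TLR9 kept the sign of their log2 difference in every setting run. However, PELI3 ranged from -4.01 (without shSOX11.3) to -0.010 (without shSOX11.1). PELI2 ranged from -0.49 (without shSOX11.1) to -0.069 (without shSOX11.3), with -0.099 without shControl.2. With the mean of probe sets, PELI1 was at 0.54, and leaving out 1 array at a time gave 0.65 to 0.81. Leaving out 1 array turned IRAK1 to 0.064 (without shSOX11.1, range -0.40 to 0.064), TRAF6 to -0.014 (without shControl.2) and -0.14 (without shSOX11.1, range -0.14 to 0.22), TLR10 to 0.11 (without shControl.1) and 0.40 (without shSOX11.1, range -0.66 to 0.40), and CD180 to -0.012 (without shSOX11.3, range up to 0.11). The count of member genes 1.5-fold apart on all pairs was 1, became 0 with the mean of probe sets and 0 at a 2-fold limit, and ranged from 1 to 2 with 1 array left out, when 2 pairs remain in place of 4. Over all genes the count of 321 became 87 with a pseudocount of 32, 1414 without a filter, 131 with the filter at the 65th percentile, 76 at 2-fold and 826 to 1387 with 1 array left out. Genes past a limma adjusted p of 0.05 numbered 0 in every setting with all 4 arrays, also at 0.10, and 0 to 953 with 1 array left out, with 211 for shSOX11.3 and 953 for shSOX11.1 left out. Among the further pathway genes 0 to 8 passed then, 8 without shSOX11.1 and 3 without shSOX11.3, HSP90B1 being in both. In a fit of single probe sets, a setting chosen after seeing the data, 0 of the 14 member probe sets passed, and 1 of all 28236 did, so the count says nothing about the members. No paired analysis was possible because the groups share only construct number 1, which does not mark a shared sample. TLR9 and CD180 did not pass the filter at the 65th percentile and have no value there. Signals near the threshold limit PELI2, PELI3, TRAF6, TLR9, TLR10 and CD180.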
